A study of Mus musculus with 10 samples.

Results

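Trichostatin A (TSA) was given to male BALB/c mice, 9 weeks old, and the testis was read 10 h later against the only control group, which was killed after the same interval. Of the 10 arrays of the study, 4 belong to this comparison. The 2 control arrays carried RNA of 3 mice that had received only the carrier, dimethylsulfoxide with PBS, and were killed at 10 h. The 2 TSA arrays carried RNA of 3 mice that had received 60 µg TSA per mouse in 1 subcutaneous injection and were killed at 10 h. The other 6 arrays, 2 each from TSA pools killed at 2.5, 5 and 7.5 h, were used only to place the 10 h values, and they share the same control. Equal group sizes gave 15 mice and 5 pools in all. The arrays were CodeLink 1-channel arrays read in Cy5. Total RNA from 3 mice was combined in each group before labelling, so each group was 1 pool (n = 1) and the duplicate arrays were technical. No test between the pools was possible, and no p-value is given. In whole testis, fewer cells of a type and less RNA per cell cannot be told apart.

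TSA blocks the zinc-dependent histone deacetylases, enzymes that take acetyl groups off histones, and it leaves the NAD-dependent sirtuins largely untouched. Acetylated histones mark open chromatin and are read by bromodomain proteins. In the testis, histone acetylation also accompanies the replacement of histones by transition proteins and protamines in spermatids, and most RNA of an adult testis comes from meiotic and postmeiotic germ cells.

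A probe counted as higher when the 10 h pool was at least 2-fold above the control pool and both 10 h arrays lay above both control arrays, and as lower in the mirror case. Of 7422 probes compared, 91 were higher (1.23%) and 107 lower (1.44%). With 1 probe for each of 6573 genes, 86 genes were higher (1.31%) and 91 lower (1.38%). Without the fold limit, both 10 h arrays lay above both control arrays for 2623 genes (39.9%) and below them for 2540 (38.6%), so separated arrays alone were common. The shares were 39.8% and 38.6% of the probes. Most of the probes that met the rule were dim. The 1856 dimmest probes held 45 higher and 59 lower ones, and the 1856 brightest 4 and 3. Among them, 34 higher and 20 lower probes had a pool mean under an intensity of 0.207, the limit below which the dimmest 25% of probes had been left out. No fold of a single gene is read from such pools, but counts and medians over sets include them. The duplicates of the control pool and those of the 10 h pool correlated across probes with r = 0.997. A single array scattered around its pool mean with an SD of 0.122 (log2) in the control and 0.117 at 10 h, and 15 and 13 probes were 2-fold apart between duplicates.

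**Figure D1:**
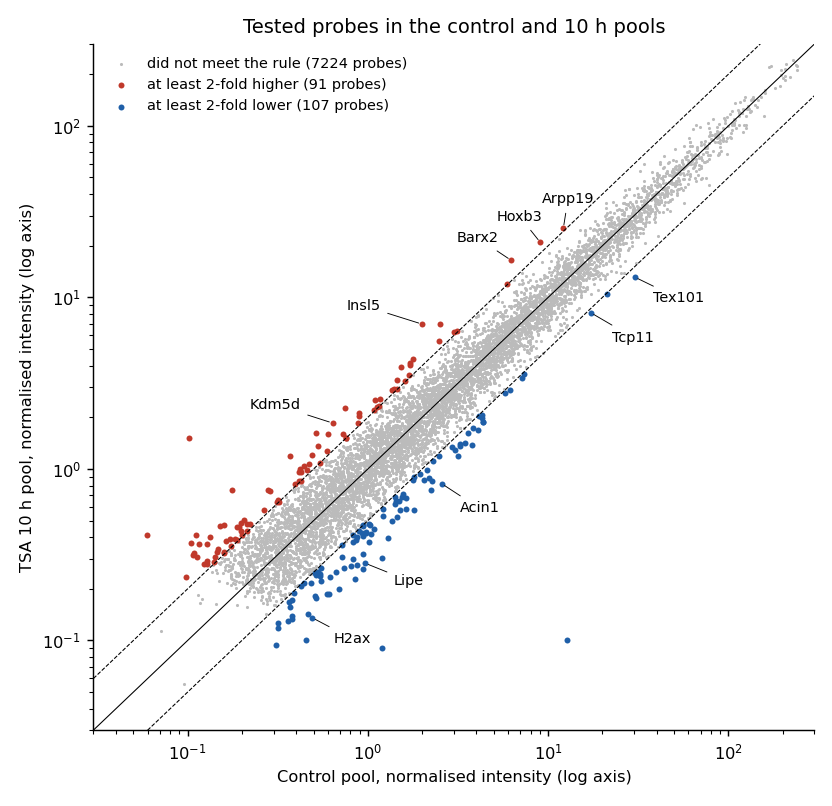
Mean normalised intensity of each tested probe in the control pool (x) and the TSA 10 h pool (y), both on log axes. The solid line marks equal values and the dashed lines mark 2-fold differences. The 91 higher probes (red) and 107 lower probes (blue) lie mostly in the dim lower left of the plot, and few bright probes lie beyond the dashed lines.

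Insl5, the gene of an insulin-like peptide hormone of the gut, had the highest fold among the genes bright enough to be named. Its control arrays read intensities of 2.00 and 2.00, and its 10 h arrays 7.54 and 6.46, a 3.49-fold difference. Ghrl, which encodes the appetite hormone ghrelin, read 1.63 and 1.82 in the control and 4.27 and 4.04 at 10 h. For both hormone genes the 10 h arrays lay clear of the control arrays, as the rule by which they were chosen requires.

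The leading genes were chosen by their fold and are ordered here by known role, and no theme was counted or tested among them. The higher ones included several regulators of transcription. Zmynd8, a bromodomain protein that reads acetylated histones, read 2.82 and 2.23 in the control and 7.25 and 6.75 at 10 h, the highest values of all 10 arrays. Barx2, a homeobox gene of epithelial and muscle development, read 6.22 and 6.26 against 17.7 and 15.3. Hoxb3, a homeobox gene of the body axis, read 7.85 and 10.4 against 20.6 and 21.2, so its control duplicates lay further apart than its 10 h duplicates. Zic2, a zinc finger factor of the developing brain, stood at a log2 fold of 1.30 with a standard error of 0.04. Here and below the error comes from the duplicate arrays of both pools and holds no difference between animals. Gata5, a zinc finger factor of heart and gut endoderm, stood at 1.15 ± 0.17. Without the first 10 h array it stood at 0.98 and no longer met the rule. Ncoa1, a nuclear receptor coactivator with acetyltransferase activity, was just past the limit at 1.03 ± 0.11, and at 0.93 without the first control array and 0.987 without the second 10 h array.

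Other higher genes have roles in the matrix, the membrane, the cytoskeleton or elsewhere. The collagen gene Col6a3 read 0.715 and 0.780 in the control and 2.28 and 2.26 at 10 h, and Col16a1 read 1.46 and 1.62 against 4.14 and 3.75. Ncan, the gene of a brain proteoglycan, had a log2 fold of 1.18 ± 0.19, and Limch1, an actin-associated protein gene, one of 1.26 ± 0.11. Arpp19, whose product restrains the phosphatase PP2A at entry into cell division, was bright, with 11.8 and 12.5 in the control and 25.8 and 24.7 at 10 h. Ttyh2 stood at 1.23, the BMP receptor gene Bmpr1b at 1.19, the synaptic adhesion gene Lrfn1 at 1.07, and the RNA-binding splicing regulator Celf2 at 1.07. Of these, Bmpr1b and Lrfn1 fell short of the 2-fold limit without the first control array, at 0.97 and 0.998, and Celf2 without the second, at 0.95. The mast cell tryptase gene Tpsb2 and Psca, a surface antigen gene, stood at 1.05 each, and Psca at 0.987 without the first 10 h array.

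Crygd, a lens crystallin gene, differed from most higher genes in time. It read 0.861 and 0.916 in the control and 2.05 and 2.03 at 10 h, against log2 folds of 0.59, 0.49 and 0.56 in the pools at 2.5, 5 and 7.5 h. Ifrd1, a transcriptional co-regulator, stood at 1.20 at 10 h and already at 1.23 at 2.5 h. Both came to 0.92 and 0.91, under the 2-fold limit, when each array was centred in bins of probes with neighbouring ID numbers (ID centring), a check added with the data in view.

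**Figure D2:**
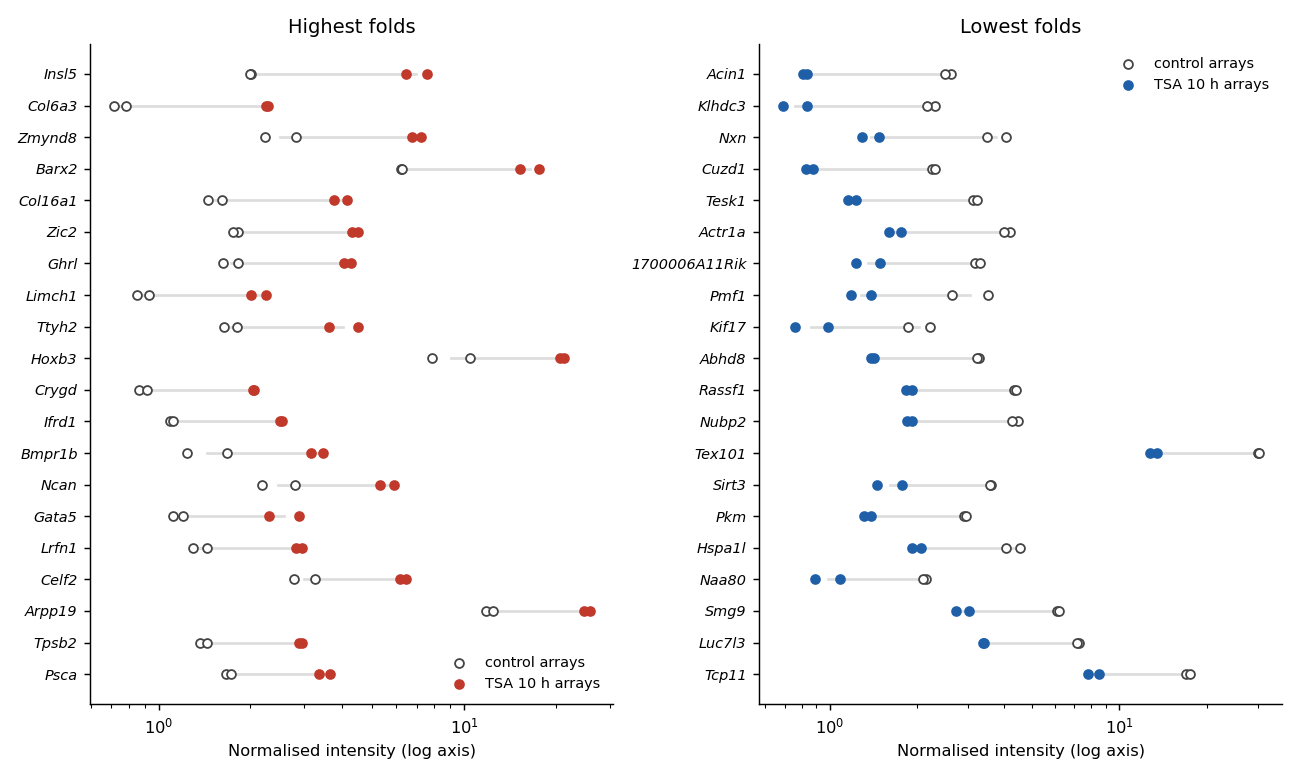
Normalised intensity (log axis) on the 2 control arrays (open circles) and the 2 TSA 10 h arrays (filled circles) for the 20 genes with the highest folds (left) and the 20 with the lowest folds (right) among the genes bright enough to be named. Grey lines join the pool means. In every row the filled circles lie clear of the open ones, as the rule requires.

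The promoters of 2 higher genes are shown because genes with few CpG pairs near their start stood above the control more often than CpG-rich ones, as the values by CpG content given further on show. Each sequence is 1 RefSeq promoter on build GRCm38.p6, from 250 bases before to 50 bases after the start, read 5′ to 3′ on the gene's strand, with CpG pairs in capitals. RefSeq gave 32851 promoters for 27025 genes, so a gene can have several starts. Whether the start shown is the one used in the testis was not tested. That of Ghrl (chr6:113717643-113717942, minus strand) held 1 CpG pair, a ratio of 0.062 of the number expected from its base composition. That of Zmynd8 (chr2:165884789-165885088, minus strand) held 8, a ratio of 0.30.
Ghrl: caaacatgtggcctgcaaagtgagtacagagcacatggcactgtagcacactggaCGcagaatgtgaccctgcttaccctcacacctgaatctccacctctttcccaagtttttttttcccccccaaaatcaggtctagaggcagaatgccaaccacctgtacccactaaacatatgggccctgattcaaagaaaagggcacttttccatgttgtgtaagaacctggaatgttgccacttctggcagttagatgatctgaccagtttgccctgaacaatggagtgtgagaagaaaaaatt
Zmynd8: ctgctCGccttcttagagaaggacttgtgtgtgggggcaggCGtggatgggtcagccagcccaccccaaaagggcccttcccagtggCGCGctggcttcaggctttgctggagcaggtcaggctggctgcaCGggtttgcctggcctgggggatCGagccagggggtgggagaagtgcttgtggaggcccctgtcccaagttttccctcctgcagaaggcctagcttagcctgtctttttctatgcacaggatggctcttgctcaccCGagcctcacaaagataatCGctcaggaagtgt

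Among the lower genes, several are known for roles in germ cells. Tex101, a surface glycoprotein of germ cells, read 30.1 and 30.3 in the control and 13.5 and 12.8 at 10 h, the lowest values of all 10 arrays. Tcp11, a testis gene linked to sperm motility, read 16.9 and 17.5 against 8.53 and 7.78. Tesk1, a testis kinase gene that acts on cofilin, read 3.13 and 3.22 against 1.23 and 1.16. All 3 were lower on both 10 h arrays than on any other array. Hspa1l, the spermatid member of the Hsp70 family, stood at -1.11 ± 0.09, and Kif17, a kinesin gene active in spermatids, at -1.24 ± 0.23. These 2 had been as low or nearly as low in the 7.5 h pool, at -1.29 and -1.06.

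Other lower genes act in RNA processing or on chromatin. Acin1, which encodes a splicing-associated protein that also acts in apoptotic chromatin condensation, had the lowest fold of the 20 leading lower genes, with 2.61 and 2.50 in the control and 0.833 and 0.809 at 10 h. Luc7l3, a splicing factor of the U1 particle, read 7.24 and 7.12 against 3.39 and 3.41, and Smg9, a gene of nonsense-mediated decay, 6.09 and 6.16 against 3.04 and 2.73. Prmt5, an arginine methyltransferase needed for germ cell and splicing proteins, read 0.870 and 0.862 against 0.298 and 0.257. Kat5, the catalytic subunit of the Tip60 acetyltransferase complex, read 1.03 and 0.995 against 0.377 and 0.376. With an offset of 0.5 added before the logarithm, which shrinks the folds of dim probes, Prmt5 and Kat5 stood at -0.81 and -0.79, and Luc7l3 and Smg9 at -0.98 and -0.97.

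The lower genes also included some of metabolism. Sirt3, the main mitochondrial deacetylase gene, read 3.61 and 3.58 in the control and 1.77 and 1.46 at 10 h. Pkm, the gene of muscle-type pyruvate kinase, read 2.90 and 2.95 against 1.31 and 1.39. Lipe, which encodes hormone-sensitive lipase, a fat-cleaving enzyme needed in the testis for sperm formation, read 0.940 and 0.987 against 0.281 and 0.283. It stood at -0.45, -0.94 and -1.53 at 2.5, 5 and 7.5 h and at -1.77 at 10 h, or -0.90 with the offset. Nubp2, a factor of iron-sulphur cluster assembly, stood at -1.21 ± 0.05, the redox regulator Nxn at -1.44 ± 0.15 and Trap1, the mitochondrial Hsp90, at -1.03 ± 0.09, but at -0.96 or -0.98 without either second array.

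The remaining leading lower genes have mixed roles. Actr1a, the dynactin subunit that forms its actin-like filament, stood at -1.29 ± 0.07, and Pmf1, a kinetochore gene, at -1.25 ± 0.23. Rassf1, a tumour suppressor gene whose product binds microtubules, read 4.33 and 4.38 against 1.93 and 1.83. Naa80, the enzyme that acetylates the start of actin, stood at -1.10 ± 0.15 and at -0.96 without the second 10 h array. Klhdc3 (-1.56), Abhd8 (-1.22), Cuzd1 (-1.42) and 1700006A11Rik (-1.26) were lower too, and the last 2 were as low or lower in earlier TSA pools.

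The promoters of 2 lower genes, in the same layout, show the other end of the CpG range, though not every leading lower gene lay there. Tesk1 (chr4:43442027-43442326, plus strand) held 25 CpG pairs, a ratio of 0.92. Smg9 (chr7:24399378-24399677, plus strand) held 30, a ratio of 1.05.
Tesk1: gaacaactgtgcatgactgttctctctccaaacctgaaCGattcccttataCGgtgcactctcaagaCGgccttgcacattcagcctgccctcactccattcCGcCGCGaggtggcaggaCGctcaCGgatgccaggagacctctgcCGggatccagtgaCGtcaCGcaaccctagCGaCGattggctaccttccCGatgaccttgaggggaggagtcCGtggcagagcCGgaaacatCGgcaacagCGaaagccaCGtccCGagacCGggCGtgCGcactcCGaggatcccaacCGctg
Smg9: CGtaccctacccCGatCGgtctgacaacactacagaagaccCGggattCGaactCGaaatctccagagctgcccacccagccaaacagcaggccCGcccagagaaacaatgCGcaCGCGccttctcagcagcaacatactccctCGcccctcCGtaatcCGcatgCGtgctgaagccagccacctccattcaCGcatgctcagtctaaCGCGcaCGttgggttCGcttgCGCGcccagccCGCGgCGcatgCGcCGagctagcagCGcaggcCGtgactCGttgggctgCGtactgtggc

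The size of the difference from control had built up over the hours for the lower probes. Over the 107 lower probes, the median log2 fold was -0.39 at 2.5 h, -0.74 at 5 h, -0.91 at 7.5 h and -1.21 at 10 h. Both 10 h arrays were the lowest of all 10 arrays for 80 of the 107 (74.8%), against 11.8% of all tested probes. The higher probes had most of their difference early, with medians of 0.85, 0.91, 1.01 and 1.19, and the 10 h arrays were the highest of all for 29 of 91 (31.9%), against 10.2% of all probes. These probes were chosen by their 10 h value, which makes the 10 h end of each series extreme by choice, and all 4 folds share the control. Set against other TSA pools in place of the control, the 10 h pool had 14 probes higher and 59 lower than the 2.5 h pool. The numbers were 4 and 51 against the 5 h pool, and 11 and 12 against the 7.5 h pool.

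**Figure D3:**
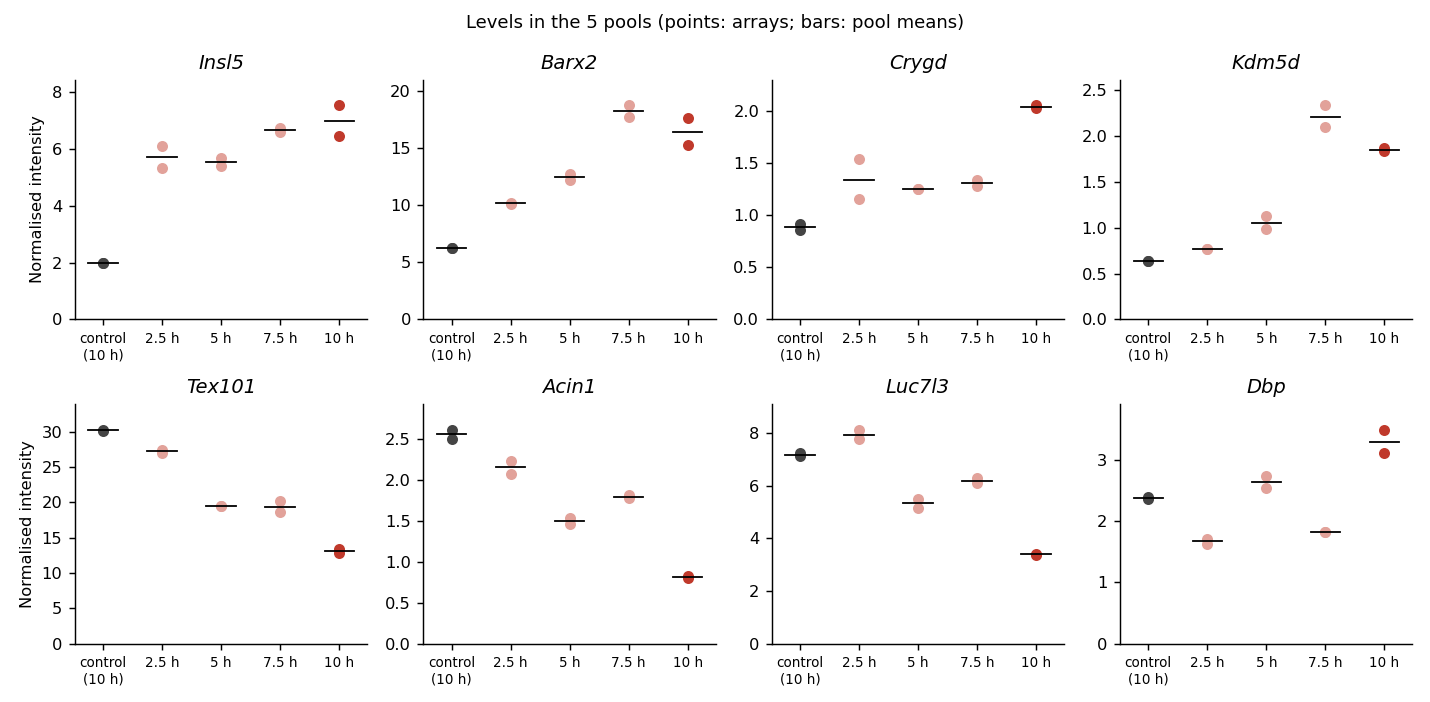
Normalised intensity of 8 genes in the 5 pools, with 1 point for each array and a bar at each pool mean. Only the last pool matches the control in the interval from injection. Tex101 stood at 30.1 and 30.3 in the control and at 13.5 and 12.8 at 10 h, while Insl5 was above its control level in all 4 TSA pools.

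The deacetylases that TSA acts on differed by less than 2-fold in RNA. Of 10 tested histone deacetylase and sirtuin genes, 0 were higher and 1, Sirt3, was lower. Both arrays lay above the control for 2 and below it for 7 (20% and 70%, against 39.9% and 38.6% of all genes). The median log2 fold was -0.22, against 0.01 over all genes. It was -0.20, -0.32 and -0.23 in the pools at 2.5, 5 and 7.5 h. The list mixes TSA targets with sirtuins, so its median does not describe the targets alone. Its lowest named values were those of the sirtuin genes Sirt3 (-1.16), Sirt4 (-0.71) and Sirt5 (-0.55). Hdac1 read 3.89 and 3.64 in the control and 3.96 and 5.19 at 10 h, with the 10 h duplicates well apart. Hdac2 overlapped its control (-0.02), Hdac3 and Hdac5 stood at -0.35 and -0.14, and Hdac6, an X-linked gene whose product acts on tubulin, at 0.55. Among 22 histone acetyltransferase and acetyl-lysine reader genes, Zmynd8 and Ncoa1 were higher and Kat5 lower, with a median of -0.18. That was 9.09% and 4.55%, against 1.31% and 1.38% of all genes. Brdt, the bromodomain gene of the testis, read 1.01 and 0.840 in the control and 0.492 and 0.448 at 10 h, just short of the limit at -0.97. Brd2 read 40.2 and 30.5 against 28.1 and 26.7. Of 18 genes of HDAC corepressor complexes, 0 met the rule, though Mbd3, a subunit of the NuRD complex, stood at -0.89 and Sap30, a Sin3 subunit, at -0.71.

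Histone methylation enzymes held 2 genes of opposite direction. Kdm5d, a Y-linked demethylase gene expressed in males, read 0.641 and 0.635 in the control and 1.87 and 1.83 at 10 h, and stood at 0.26, 0.73 and 1.79 at 2.5, 5 and 7.5 h. Its X-linked relative Kdm5c read 1.27 and 1.27 against 2.23 and 2.07. Of the 17 tested genes of this list, Kdm5d and Prmt5 met the rule, and the median was 0.07. That was 5.88% in each direction, against 1.31% higher and 1.38% lower of all genes. Of 12 histone variant and sperm packaging genes, H2ax alone met it. H2ax, the variant that marks broken DNA and the sex body of spermatocytes, read 0.485 and 0.495 in the control and 0.120 and 0.153 at 10 h, which lay under the limit for dim pools, so no fold is given. Macroh2a1 stood at -0.89, the protamine gene Prm3 at 0.61, and the transition protein gene Tnp1 read 170 and 175 in the control and 199 and 250 at 10 h, near the top of the range.

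Genes that HDAC inhibitors are known to induce in cultured cells stood near the background. Of 19 tested, 0 met the rule, 7 had both arrays above and 6 both below the control (36.8% and 31.6%, against 39.9% and 38.6% of all genes), and the median was 0.04. Cdkn1a, the cell cycle inhibitor p21, read 2.92 and 2.80 in the control and 2.77 and 2.64 at 10 h. Gadd45b, a stress response gene, read 0.408 and 0.388 against 0.216 and 0.199, the 10 h pool mean being close to the limit for dim pools, and Gadd45a overlapped. Cdkn1c, another inhibitor of this family, stood at 0.47.

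Germ cell lists stood below the control more often than above it. Of 28 genes of meiotic recombination and the piRNA pathway, which guards the germ line against transposons, 18 had both arrays below the control and 8 above (64.3% and 28.6%, against 38.6% and 39.9% of all genes), with a median of -0.25. Tex101 was the only one to meet the rule. In the pools at 2.5, 5 and 7.5 h, set against the same control, the median of this list was -0.10, -0.26 and -0.16. Piwil1, the piRNA-binding protein of late spermatocytes, read 13.4 and 13.7 in the control and 7.97 and 7.40 at 10 h, and the meiotic cohesin gene Rec8 stood at -0.80. Tex11, an X-linked recombination gene, went the other way at 0.80. Of 15 spermatogonial and premeiotic genes, 0 met the rule and the median was -0.21, with Kit at -0.48 and Dmrtb1, a regulator of entry into meiosis, at -0.46. This median was -0.05 with dim probes kept.

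Postmeiotic lists had medians nearer to the middle, though each had more genes with both arrays below the control than above it. Of 27 spermatid regulators, Tesk1, Hspa1l and Kif17 were lower (11.1%, against 1.38% of all genes) and 0 higher, and the median was -0.09. Both arrays lay below the control for 12 and above it for 8 (44.4% and 29.6%, against 38.6% and 39.9% of all genes). Crem, the master regulator of spermatid genes, read 35.1 and 35.4 in the control and 36.8 and 36.4 at 10 h. Of 24 acrosome and fertilisation genes, Tex101 was lower and 0 higher, with a median of -0.14, and 12 had both arrays below and 6 above (50% and 25%). The acrosin gene Acr stood at -0.54 and the acrosomal matrix gene Acrv1 at 0.65. Of 27 tail genes, Tcp11 was lower and 0 higher, with a median of 0.004, and 12 had both arrays below and 9 above (44.4% and 33.3%). Septin4, the gene of a ring protein of the sperm tail, read 21.0 and 21.0 against 33.1 and 32.9, and Rsph1, a radial spoke gene, 34.6 and 34.1 against 19.8 and 21.9.

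Genes of DNA repair and cell division also leaned to the lower side. The repair list did so in the earlier TSA pools too, set against the same control. Its medians were -0.12, -0.21 and -0.25 at 2.5, 5 and 7.5 h. At those hours the G1 and S phase list stood at -0.008, -0.13 and -0.03. The mitotic list stood at -0.14, -0.08 and -0.07. Of 48 genes listed for break signalling and repair, 3 were lower (Rpa2, the dim H2ax and the tumour suppressor gene Rassf1) and 0 higher. The share lower was 6.25%, against 1.38% of all genes. Both arrays lay below the control for 30 and above it for 9 (62.5% and 18.8%, against 38.6% and 39.9% of all genes). The median was -0.17. Rpa2, a part of the complex on single strands of DNA during replication and repair, read 0.984 and 0.886 in the control and 0.285 and 0.238 at 10 h. With the offset, Rpa2 stood at -0.91 and Mcm7 and Plk1, given next, at -0.76 each, all short of the limit. Rad18 and Fancg stood at -0.97 and -0.99, just short of the limit. Of 55 genes of the G1 and S phases, the replicative helicase gene Mcm7 was lower and 0 higher, 32 had both arrays below and 14 above (58.2% and 25.5%, against the same shares of all genes), and the median was -0.19. Of 45 mitotic and spindle checkpoint genes, 2 were lower (4.44%, against 1.38% of all genes) and 0 higher, with a median of -0.10. These were Plk1, with 1.53 and 1.60 in the control and 0.678 and 0.757 at 10 h, and Pkmyt1, the kinase that holds back Cdk1. Aurka, the spindle pole kinase, read 7.21 and 7.39 against 4.26 and 4.30. Of 31 p53 target and apoptosis genes, 0 met the rule and the median was 0.09, with Diablo, a mitochondrial activator of caspases, at -0.88.

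Mitochondrial and other housekeeping genes were read by pathway. Of 32 genes of pyruvate use, the citrate cycle and fatty acid oxidation, Lipe was lower and 0 higher, 19 had both arrays below and 4 above (59.4% and 12.5%, against 38.6% and 39.9% of all genes), and the median was -0.14. Sdhc, a subunit of succinate dehydrogenase, read 13.1 and 12.2 in the control and 6.79 and 6.69 at 10 h. Of 46 respiratory chain genes, 1 was higher (Cox6a2, dim in the control) and 0 lower, 23 had both arrays above and 11 below (50% and 23.9%, against 39.9% and 38.6% of all genes), and the median was 0.13. Cox7b, an X-linked subunit of cytochrome c oxidase, read 9.98 and 10.1 against 19.5 and 16.8, and Ndufa5 and Cox5b stood at 0.62 each, while Atp5b of the ATP synthase stood at -0.57. Of 59 ribosomal protein genes, 0 met the rule, 30 had both arrays above and 12 below (50.8% and 20.3%, against 39.9% and 38.6% of all genes), and the median was 0.09. Against the same control, the ribosomal medians at 2.5, 5 and 7.5 h were 0.23, 0.11 and 0.13. Those of the respiratory chain were 0.25, 0.11 and 0.16, and those of the pyruvate to fatty acid list -0.14, -0.22 and -0.18. Of 22 glycolysis genes, the liver and red cell pyruvate kinase gene Pklr was higher and Pkm and Aldoc lower, with a median of 0.05. That was 4.55% and 9.09%, against 1.31% and 1.38% of all genes. Pklr stood at 0.96 without the first control array and Aldoc missed the limit without either second array, at -0.99 without the 10 h one. The 36 proteasome genes (0 met, median -0.03) and 43 heat shock and chaperonin genes (Hspa1l and Trap1 lower, median -0.02) lay at the background.

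Lists of hormones, their receptors and developmental regulators lay mostly above the control. The earlier TSA pools, set against the same control, had positive medians too. At 2.5, 5 and 7.5 h these were 0.28, 0.28 and 0.36 for peptide hormones and 0.21, 0.22 and 0.33 for their receptors. They were 0.15, 0.16 and 0.39 for homeobox genes and 0.09, 0.16 and 0.18 for forkhead to Zic genes. Of 18 tested peptide hormone genes, 3 were higher (Insl5, Ghrl and Iapp), or 16.7% against 1.31% of all genes. Both arrays were above the control for 14 and below it for 0 (77.8% and 0%, against 39.9% and 38.6%), and the median was 0.34. Iapp, the islet amyloid peptide gene, read 0.756 and 0.751 against 1.33 and 1.73, and stood at 0.82 without the second 10 h array. Of 25 peptide hormone receptor genes, 4 were higher (Adcyap1r1, and the dim Calcr, Mc3r and Aplnr), or 16%, and 0 lower. Both arrays were above for 20 and below for 3 (80% and 12%), and the median was 0.38. Adcyap1r1, the receptor gene of the neuropeptide PACAP, read 0.564 and 0.497 against 1.44 and 1.30, a log2 fold of 0.86 with the offset, and Npy2r stood at 0.74. Of 43 homeobox genes, 5 were higher (Barx2, Hoxb3, Hoxd1, Evx1 and the dim Barx1) and 1 lower (Pou6f1), 31 had both arrays above and 6 below, and the median was 0.37. Hoxd1 read 0.425 and 0.427 against 0.968 and 0.958. Hoxd1 and Evx1 stood at 0.92 each under the ID centring. Of 30 forkhead, Sox, T-box, Gata and Zic genes, 3 were higher (Zic2, Gata5 and Foxd4) and 1 lower (Tbx1, dim at 10 h). That was 10% and 3.33%. Both arrays were above for 16 and below for 8 (53.3% and 26.7%). The median was 0.37, but it was -0.02 with dim probes kept. Foxd4 stood at 1.03 ± 0.29 and, without the first control or second 10 h array, at 0.96 or 0.75. Of 31 neuronal genes, 2 were higher (Ncan and the dim Grin2c), or 6.45%, and 0 lower. Both arrays were above for 21 and below for 5 (67.7% and 16.1%), and the median was 0.27. Many genes of these lists had been left out as dim, for example 27 of 45 measured peptide hormone genes and 38 of 81 homeobox genes. A gene could pass that filter through the pools in which it was high, so the counts do not speak for all members.

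**Figure D4:**
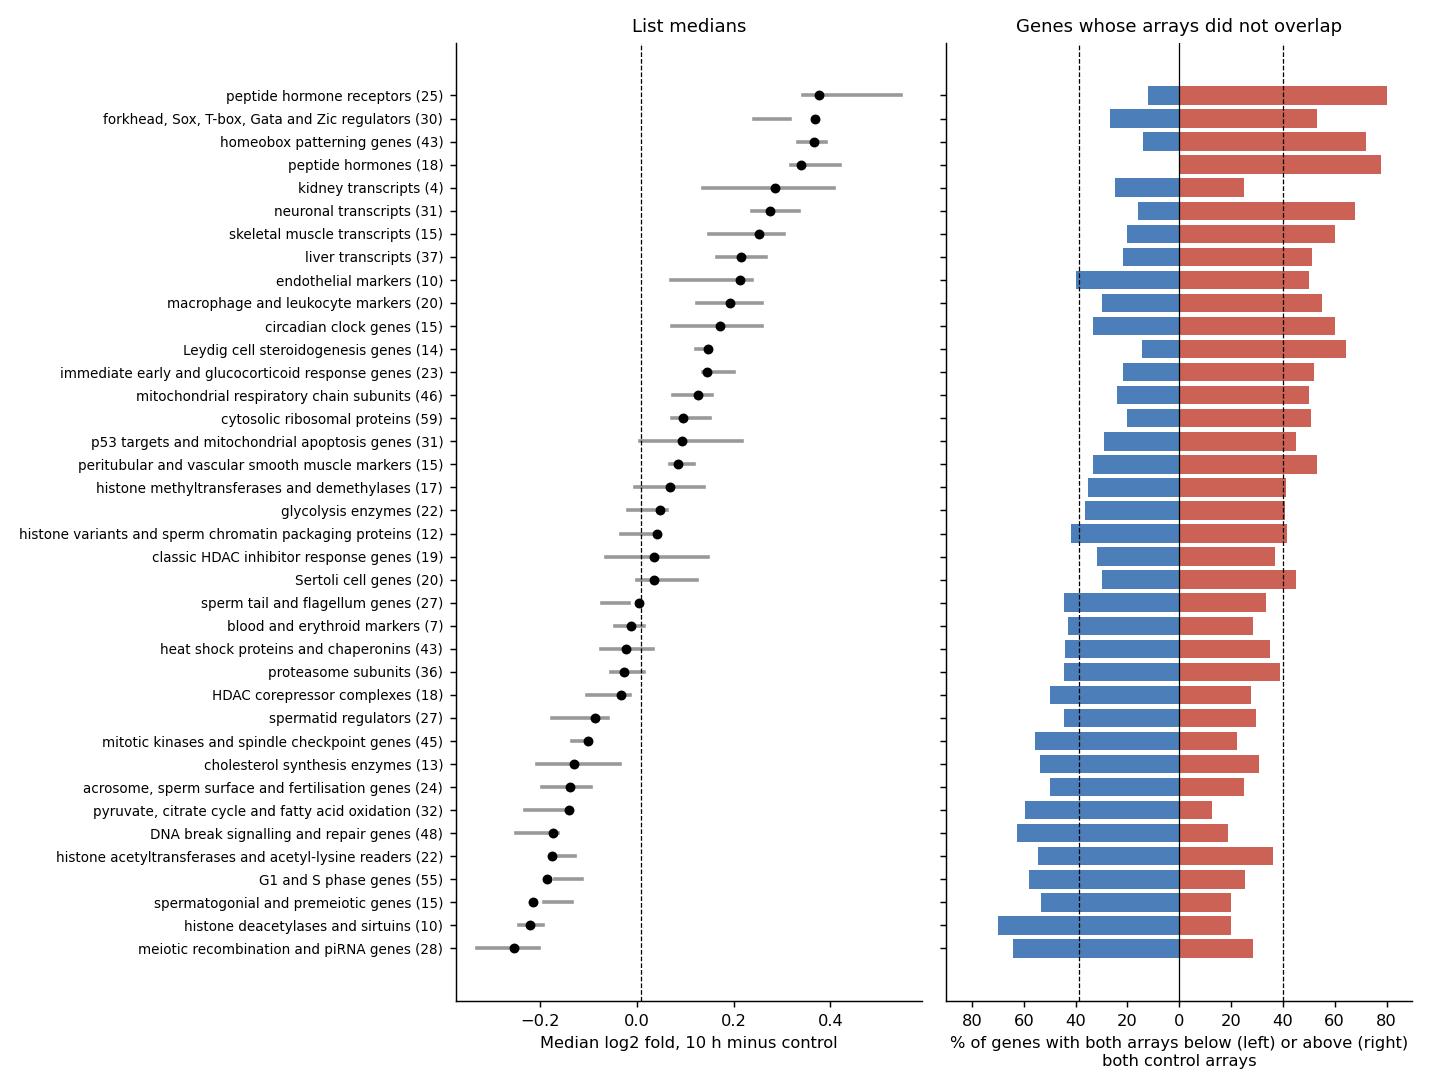
Left, the median log2 fold of each gene list (points) with the range of that median over the 4 pairs of single arrays (grey bars) and the median of all 6573 genes (dashed line). Right, the percentage of genes in each list with both 10 h arrays below (blue) or above (red) both control arrays, with the dashed lines at 38.6% and 39.9% for all genes. Numbers of tested genes stand in parentheses. Hormone receptor, homeobox, forkhead to Zic and peptide hormone lists lie at the top, of which the forkhead to Zic median was -0.02 with dim probes kept. Meiotic genes, the mixed list of deacetylases and sirtuins, and premeiotic genes lie at the bottom.

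The tested genes of Leydig, Sertoli and peritubular cells lay within 2-fold of the control. Of 14 Leydig cell steroidogenesis genes, 0 met the rule, and 9 had both arrays above and 2 below (64.3% and 14.3%, against 39.9% and 38.6% of all genes). The median was 0.15, or 0.005 under the ID centring. Star, which brings cholesterol into mitochondria, read 3.37 and 3.08 in the control and 3.59 and 3.56 at 10 h, and stood at -0.90 in the 7.5 h pool. Cyp17a1 read 83.2 and 88.8 against 97.7 and 100.4, Cyp11a1 overlapped, and Sult1e1, an oestrogen sulphotransferase gene, stood at 0.51. Of 20 Sertoli cell genes, 0 met the rule and the median was 0.04, with the inhibin gene Inha at -0.73 and the vimentin gene Vim at 0.66. The 13 cholesterol synthesis genes (median -0.13), 15 peritubular and smooth muscle genes (0.09) and 23 immediate early and glucocorticoid response genes (0.14) held 0 that met the rule. Of the latter, the glucocorticoid target Tsc22d3 read 4.46 and 4.41 against 6.46 and 6.31.

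The tissue label was checked against marker lists. Intensities summed over the spermatid list were 731 and 732 on the control arrays and 710 and 728 at 10 h, and over the sperm tail list 1566 to 1583 and 1559 to 1562, so germ cell RNA was plentiful in both pools. The sums over the meiotic list were 616 to 624 in the control and 546 to 557 at 10 h, and those over the Leydig list 187 to 194 and 214 to 220. Liver transcripts, which had reached 303 to 306 in the 5 h pool, summed to 51.0 to 51.7 in the control and at most 53.1 at 10 h. Of 37 liver genes, 3 were higher (F9 and the dim G6pc and Orm1) and 0 lower, with a median of 0.21. The share higher was 8.11%, against 1.31% of all genes. Among other tissues and cells, 20 macrophage and leukocyte genes gave 4 higher (Laptm5, Ly6d and the dim Cd7 and Siglec1), or 20%, and 0 lower. Both arrays were above for 11 and below for 6 (55% and 30%, against 39.9% and 38.6% of all genes). The median was 0.19, which was -0.19 with the dimmest 50% left out. Of 10 endothelial genes, 1 was lower (Cldn5, dim at 10 h), or 10% against 1.38% of all genes, with a median of 0.21. Of 15 skeletal muscle genes, 2 were higher (Cox6a2 and Atp2a1, dim in the control), or 13.3% against 1.31%. The skeletal muscle median was 0.25, or -0.02 with the dimmest 50% left out. The 7 blood genes (median -0.01), 4 kidney genes (0.29) and 2 epididymis genes held 0 that met the rule. With the offset Laptm5 stood at 0.68. Without 1 array, F9 came as low as 0.87 and Ly6d as low as 0.96. Whether shifts in the share of cell types contributed to any of these differences was not tested.

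The interval from injection to killing was matched only here, and the clock time of the injections is not given in the labels used here. Circadian clock genes were therefore read. Of 15 tested, 0 met the rule, and 9 had both arrays above and 5 below the control (60% and 33.3%, against 39.9% and 38.6% of all genes). The median was 0.17, against 0.02, 0.05 and 0.03 at 2.5, 5 and 7.5 h. It was 0.04 under the ID centring. Dbp, a clock-controlled transcription factor gene, read 2.35 and 2.39 in the control and 3.11 and 3.49 at 10 h, and stood at -0.51, 0.16 and -0.38 in the other TSA pools. Arntl, the core activator also known as Bmal1, read 0.434 and 0.423 against 0.807 and 0.813, a log2 fold of 0.92, and stood at 0.64 to 0.84 earlier. Clock stood at 0.26, Per1 at 0.36, Nfil3 at 0.52 and Csnk1d, a kinase of the period proteins, at -0.47. Under the ID centring Clock stood at -0.02 and Dbp at 0.31.

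X-linked genes stood above autosomal ones as a group at 10 h. The X chromosome is silenced in male germ cells during meiosis and is partly reactivated in spermatids. The median log2 fold of 220 X-linked genes was 0.16, against 0.004 for 6341 autosomal genes, and every autosome had a median between -0.04 and 0.05. Both 10 h arrays lay above both control arrays for 122 X-linked genes and below them for 42 (55.5% and 19.1%), against 39.4% and 39.3% of autosomal genes. The size rule was met by 3 of them (L1cam, Rai2 and F9), all higher. That was 1.36% higher and 0% lower, against 1.29% and 1.44% of autosomal genes, so the share higher was near the background. In the pools at 2.5, 5 and 7.5 h the X median was 0.003, 0.08 and 0.03, and the autosomal one -0.01, -0.03 and -0.009. Comparisons of the 10 h pool with those pools do not involve the control. In them the X medians were 0.18, 0.09 and 0.12, and the autosomal ones 0.02, 0.03 and 0.005. In 4 brightness groups of the probes, from the dimmest to the brightest, the X medians at 10 h against the control were 0.02, 0.21, 0.15 and 0.23. The difference between the X and autosomal medians kept its sign under 15 alternatives, at 0.11 to 0.18.

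Single X-linked genes, named here after their values were seen, were mostly moderate. L1cam, a neural adhesion gene, read 0.665 and 0.537 in the control and 1.85 and 1.37 at 10 h, and Rai2 read 1.07 and 1.08 against 2.29 and 2.11. Bex3, a small signalling adaptor gene, read 5.15 and 5.44 against 10.3 and 10.2, and Timp1, an inhibitor of matrix proteases, 0.631 and 0.605 against 1.11 and 1.09. Cylc1, a cytoskeletal protein gene of the sperm head, went the other way, with 11.5 and 11.8 against 6.54 and 6.36.

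Folds over all genes went from positive to negative with the CpG content of promoters. RefSeq promoters of 300 bases (build GRCm38.p6) were found for 5325 of the 6573 tested genes (81.0%). From under 0.2 to above 1 in the ratio of observed to expected CpG pairs, the median log2 folds of the 6 groups were 0.12, 0.14, 0.06, -0.02, -0.04 and -0.09, over 504, 582, 677, 1374, 1547 and 641 genes. Of the lower genes, 1 was among the 504 poorest promoters and 11 among the 641 richest (0.20% and 1.72%, against 1.38% of all genes). The groups between them held 0.34%, 1.33%, 1.75% and 1.94%, so the richest group did not have the highest share. Leading genes also went against the pattern. The higher Limch1 and Ifrd1 had ratios of 0.92 and 0.90 and the lower Cuzd1 and Acin1 0.09 and 0.48, and 6 of 19 leading lower promoters lay under 0.6. In genes brighter than the median the values ran from 0.08 to -0.06, and in dimmer ones from 0.22 to -0.22. With the CpG ratio averaged over all starts of a gene, the outer groups stood at 0.15 and -0.09. In the earlier TSA pools, set against the same control, the outer groups had the same signs. The poorest and richest groups stood at 0.03 and -0.06 at 2.5 h, 0.04 and -0.11 at 5 h, and 0.06 and -0.05 at 7.5 h. With the 7.5 h pool in place of the control, the outer groups of the 10 h pool kept their signs, at 0.07 and -0.03. With the 2.5 h pool they stood at 0.12 and -0.04, and with the 5 h pool at 0.08 and -0.007. Genes of low CpG content were also dimmer, with a median intensity of 1.06 in the second group against 3.16 in the richest one, and the part of brightness in the pattern was not tested.

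**Figure D5:**
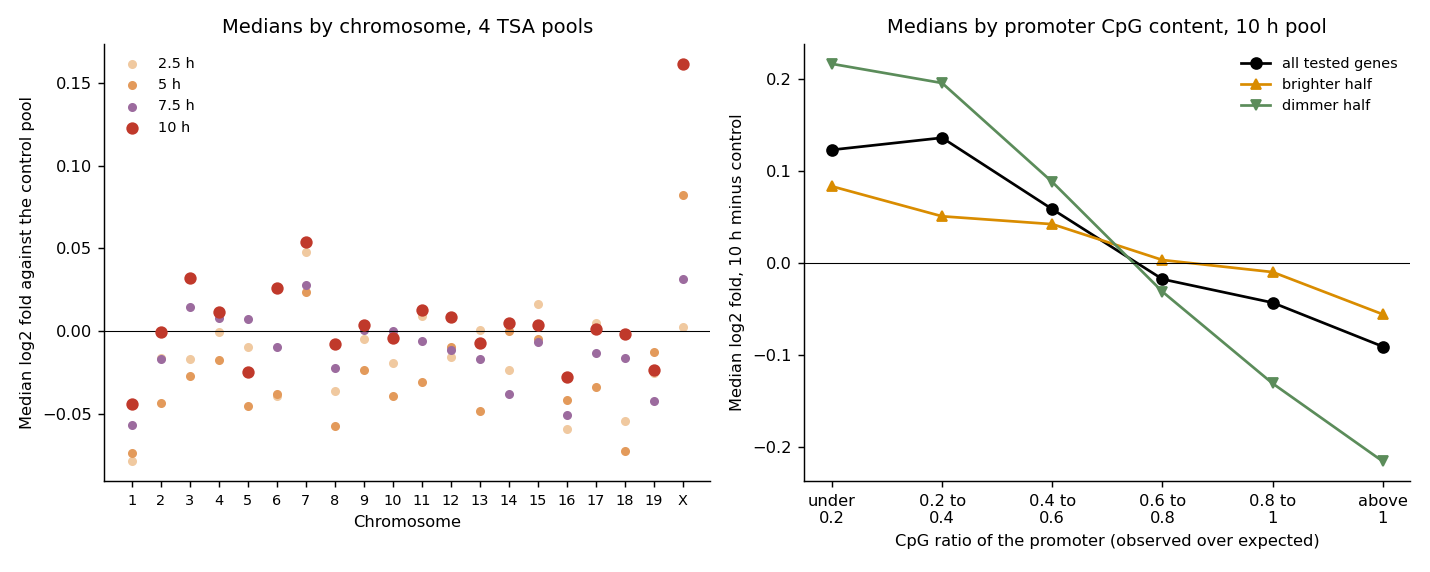
Left, the median log2 fold against the control pool of the genes on each chromosome, in the 4 TSA pools. The X chromosome stood at 0.16 at 10 h and the autosomes between -0.04 and 0.05. Right, the median log2 fold at 10 h by the CpG ratio of the promoter for all genes and for those brighter and dimmer than the median. The 3 lines lie above 0 at low and below 0 at high CpG ratio.

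Over the lower genes, 77 of 91 (84.6%) had a promoter in the table. Their median CpG ratio was 0.81, against 0.74 over all tested genes. The GC box, GGGCGG on either strand, was found in 59 of the 77 (76.6%), against 60.6% of tested genes and 35.9% of all 27025 promoters of this length, 1 for each gene. The cyclic AMP response element's core, TGACG, was found in 34 (44.2%), against 31.1% of tested genes and 21.0% of all promoters, and CTTCCGG, bound by ETS factors, in 19 (24.7%), against 16.7% and 9.12%. TATAAA was found in 2 (2.60%), against 8.30% and 14.2%, and CCAAT in 33 (42.9%), against 38.5% and 37.9%. These motifs are short and partly follow base composition, and some sites hold more than 1 of them. The same check over the higher genes is void, since 74.4% of them had a promoter in the table.

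Some lower genes were neighbours on a chromosome, an observation made after their values were seen. Zmynd10, a gene of motile cilia, lies next to Rassf1 on chromosome 9 and read 20.9 and 21.3 in the control and 10.7 and 10.2 at 10 h. Naa80 lies 4 places further on. Nprl2 (-0.54) and Cyb561d2 (-0.50) on the other side had both arrays below the control. Hyal2 (0.02), between Rassf1 and Naa80, and Ifrd2 (0.07), beyond Naa80, overlapped it. Kat5 lies next to Rela on chromosome 19, and Prmt5 and Acin1 lie 7 places apart on chromosome 14. For 2 genes the probes disagreed: 1 probe of Pxmp4 stood at -1.42 and another at -0.51, and a probe of Sertad1 was lower and dim at 10 h while a brighter one stood at 0.09.

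The 6 probes over 4-fold apart, also picked after their values were seen, all had a pool under the limit for dim pools, so no fold is given. Cd52, a leukocyte surface antigen gene, read 1.18 and 1.22 in the control and 0.0865 and 0.0942 at 10 h, with 0.102 to 0.412 in the other TSA pools. A probe without a gene symbol (probe 2712) read 12.4 and 13.1 in the control, 0.104 and 0.0981 at 10 h and 0.0612 to 0.740 in the other TSA pools. Urgcp was the reverse, with 0.116 and 0.0889 in the control and 1.49 and 1.52 at 10 h. In these 3 the control pool stood apart from all 4 TSA pools, and a deviation of the 3 control mice and an effect of TSA cannot be told apart.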

How the data were processed

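Testis RNA of 5 pools was read on 10 arrays. Per the labels, RNA of 3 mice was combined and labelled by in vitro transcription. The authors deposited linear, normalised intensity values (median 1.00). Once sorted, each array held the same values (differences of 0), the mark of quantile normalisation. Scanner software, background correction and spot flags were not given in the sources used here. Of 10012 probes, 115 had no value and 9897 were used. Gene symbols came from the platform table, updated through gene identifiers for 8975 probes, and 8983 probes carried 1 symbol, 1 several and 1028 none.

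Values under 0.0364, the 5th percentile, were set to it, all were turned to log2, and array medians were made equal. The lowest 25% by mean over all arrays (under 0.207) were left out. Folds are differences of the means of the duplicate log2 values. A list used the brightest probe of a gene. Replicates are technical, and precision is limited by how few arrays there were.

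Genes were named by rule: with 1 symbol, both pools at or above 0.207 and the higher pool above 1.99, the median of the tested probes, the 20 highest and 20 lowest folds that met the size rule; up to 4 members of each of 39 gene lists; and a set named always. Insl3 and Nr1d1 are not measured here, and Sox9 and Per2 were too dim to be tested. The comparison, its lists and the naming rule were chosen with earlier results of these data known. Alternatives changed the scaling, the filter, the floor, the size rule, the pairing and the arrays used. The steps were tested on simulated data. Python 3.11.15, numpy 2.4.6, pandas 2.3.3 and matplotlib 3.10.9 were used.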

Additional observations from a re-analysis of the deposited data

Results flagged for a closer look

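Luc7l3, a splicing factor gene, stood on opposite sides of the control at 2.5 h and 10 h. Its log2 fold was 0.146 at 2.5 h, with both arrays above both control arrays, and -1.08 at 10 h, with both arrays below them. Each time point was 1 pool, and the difference between them was not tested.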

How the results depend on the processing

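The counts of 91 higher and 107 lower probes rested on how dim probes were treated. They were 204 and 254 with no filter, 35 and 38 with the lowest 50% left out, and 14 and 16 with an offset of 0.5 before log2. A 1.5-fold limit gave 637 and 584, and a 3-fold limit 12 and 17. Pairing each 10 h array with the control array of the same number, as a replicate block, gave 50 and 79. Deviations of same-numbered arrays correlated at -0.0201, which cannot show whether those arrays were run together. Leaving out 1 array in turn gave 104 to 121 higher and 112 to 127 lower. Centring on probes of like ID number, chosen after the data were seen, gave 73 and 120. Quantile normalisation over 10 or 4 arrays, no shift and no floor all gave 91 and 107, the filter on the 4 arrays 80 and 111, and means over the probes of a gene 86 and 90. Of the 61 named genes that met the rule, 38 no longer met it with the offset. Of the 40 leading genes, 18 no longer met the rule with the offset, 8 with the block, 5 with the centring (Crygd, Ifrd1, Celf2, Tpsb2 and Naa80) and 1 or 2 without an array, and 0 turned direction. With 1 pool per group, differences between animals were not measured.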
